A study of Homo sapiens with 33 samples.

Results

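The expression of 10 genes of the hypoxia response (NDRG1, CA9, VEGFA, ADM, BNIP3, EGLN3, KDM3A, ANKRD37, PFKFB4 and ALDOC) was followed in HT29 cells given herbal extracts. The genes were taken by symbol from the 60675 genes of the count table, and all 10 were among the 17432 genes with enough counts to be tested. HT29 is an established line derived from a human colorectal adenocarcinoma. Cells received vehicle (DMSO, 0.1% in the sample labels) or a 70% ethanol extract of 1 of 4 formulas (Samul-tang, Sagunja-tang, Sibjeondaebo-tang or Palmul-tang) of Korean traditional medicine, and RNA was sequenced after 24 h. Palmul-tang joins the herbs of Sagunja-tang and Samul-tang, and Sibjeondaebo-tang adds herbs to Palmul-tang. Every extract was given at 500, 100 and 20 µg/mL. Vehicle had 3 libraries, each dose of Sagunja-tang and of Samul-tang had 2 (replicates 2 and 3), and each dose of Palmul-tang and Sibjeondaebo-tang had 3, for 33 libraries in 13 groups. The labels name no low-oxygen treatment in any group.

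Cells sense oxygen through hypoxia-inducible factors (HIFs). While oxygen is present, prolyl hydroxylases of the EGLN family modify the alpha subunits HIF1A and EPAS1, which the VHL ubiquitin ligase then marks for destruction. When oxygen falls, the alpha subunits persist, pair with ARNT and bind a short core motif near genes for acid handling, blood vessel growth, mitochondrial turnover, histone demethylation and glycolysis. Several of these genes are widely read as markers of low oxygen in colorectal tumours, CA9 and NDRG1 among them.

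Total counts ran from 28558866 to 49068019 per library. Epithelial markers of the colon were present throughout, with a summed level of 12228 to 12649 CPM (counts scaled to a fixed library total) in vehicle and 11487 to 14034 CPM with extracts, although CDX1 was low (0.592 to 1.37 CPM). Fibroblast markers summed to at most 2.91 CPM and endothelial markers to at most 2.07 CPM, with PDGFRA and KDR at 0 in every library. The 6 immune markers summed to 1377 to 1439 CPM in vehicle and 1372 to 1825 CPM with extracts, nearly all of it LYZ, the lysozyme gene (1363 to 1818 CPM). CD68 reached 8.92 CPM and CD14 4.26 CPM, while PTPRC stayed at or below 0.0708 CPM and CD3E at or below 0.051 CPM. The part of these markers in the results was not tested. Nothing in the labels says that replicates were separate cultures, so p-values measure only how far these libraries spread, and that spread may be technical. All titles name batch E. The sample codes of vehicle, of Sagunja-tang with Samul-tang, and of Palmul-tang with Sibjeondaebo-tang begin differently, with no meaning given. A difference from vehicle therefore cannot be told apart from whatever the codes mark, nor can a difference of the latter pair of formulas from the former. Replicate 2 of Sagunja-tang at 500 µg/mL stood apart, with levels that fell along gene length (Spearman -0.274 across genes) and the largest distance from its fellow replicate of any pair. Calls that involve this library are mostly given below with and without it, and leaving it out leaves 1 library in that group. In bulk RNA, a lower level in every cell and fewer cells of a high level cannot be told apart.

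RefSeq promoter entries (GRCh38.p14) were matched by symbol for 8 of the 10 genes. No entry was matched for NDRG1 or VEGFA, so their promoters were not searched. The 250 bases before each start were searched on both strands for ACGTG and GCGTG, the HIF core motif, which read CACGT and CACGC where they lie on the other strand. CACGTG holds ACGTG on both strands and counts as 2 overlapping matches. Either motif was found in 7 of the 8 genes and in 43.2% of all 35116 promoters, and ACGTG in 4 of the 8 and in 18.5% of all. EGLN3 held neither in this window. Stretches of 5 genes are shown because they hold the motif in its different forms, with the motif in capitals and the gene's own strand written 5′ to 3′.
CA9: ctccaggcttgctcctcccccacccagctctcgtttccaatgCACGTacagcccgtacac
ANKRD37: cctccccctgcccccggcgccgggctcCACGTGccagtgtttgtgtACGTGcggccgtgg
BNIP3: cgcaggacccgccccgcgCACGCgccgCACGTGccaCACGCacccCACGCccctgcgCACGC
ALDOC: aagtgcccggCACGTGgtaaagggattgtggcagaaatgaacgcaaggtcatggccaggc
KDM3A: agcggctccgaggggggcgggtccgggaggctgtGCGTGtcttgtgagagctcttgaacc
The CA9 stretch is chr9:35673868-35673927 (plus strand), with CACGT starting 18 bases before the start. The ANKRD37 stretch is chr4:185396652-185396711 (plus strand), with 2 separate motif clusters. The BNIP3 stretch is chr10:131982023-131982084 (minus strand) and holds all 6 matches of that window. The ALDOC stretch is chr17:28577086-28577145 (minus strand) and holds 2 of that window's 5 matches. The KDM3A stretch is chr2:86441311-86441370 (plus strand), with the single GCGTG of the first of its 2 RefSeq entries. A match is a run of letters and says nothing of HIF binding in these cells.

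The 10 genes covered a wide range of levels in vehicle. Per kilobase of annotated exon, CA9 was highest (18.8 CPM per kb), followed by ALDOC (6.53), VEGFA (4.76), KDM3A (2.93), NDRG1 (1.74), ADM (1.39) and EGLN3 (1.12). PFKFB4 (0.591), BNIP3 (0.538) and ANKRD37 (0.171) were below 1 CPM per kb. The length joins the exons of all annotated transcripts (1.67 kb for CA9, 14.4 kb for VEGFA and 13.4 kb for KDM3A), and the order depends on it. In CPM without length, VEGFA was highest in vehicle (68.6), followed by KDM3A (39.4), CA9 (31.3) and ALDOC (19.1). The lowest gene, ANKRD37, had 12 to 46 counts per library, and the count of NDRG1 ran from 425 to 1062. Between the lowest and the highest group mean, levels differed 1.89-fold for NDRG1, 2.08-fold for ANKRD37, 1.58-fold for ALDOC and 1.21- to 1.44-fold for the other 7. In 6 of the 10 genes (NDRG1, VEGFA, ADM, EGLN3, KDM3A and PFKFB4) the highest group mean was that of Samul-tang at 500 µg/mL. The lead over the next group ran from 24.9 against 17.7 CPM in NDRG1 to 4.85 against 4.82 CPM in PFKFB4. The share of all genes with their highest mean in that group was not counted.

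**Figure D1:**
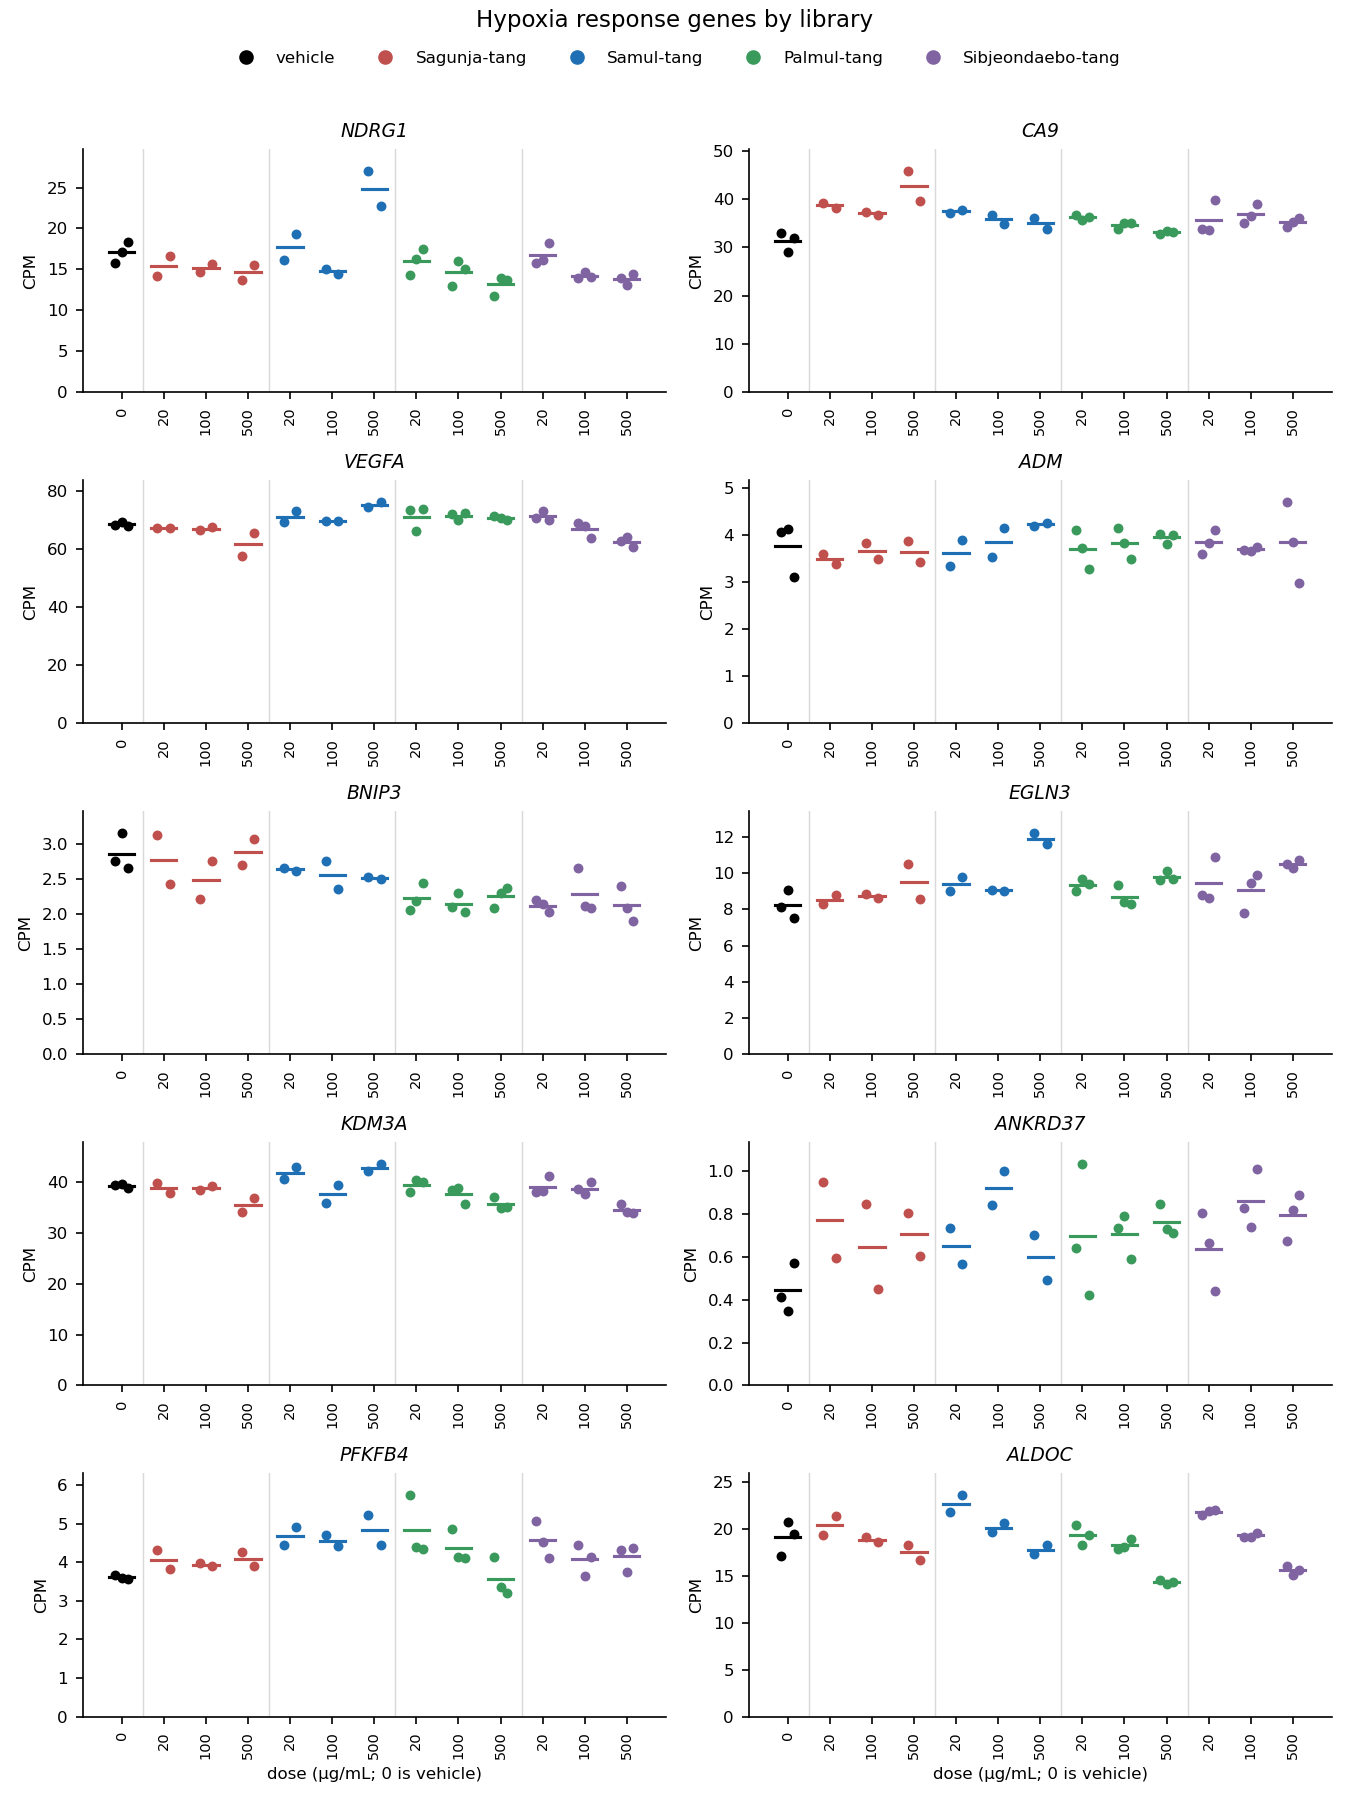
Normalised level (CPM, linear axis from 0) of each gene in each of the 33 libraries, by extract and dose in µg/mL, with dose 0 for vehicle. Points are libraries and bars are group means. NDRG1 stands apart at 22.7 and 27.0 CPM with Samul-tang at 500 µg/mL, and ALDOC is lowest at 14.1 to 14.6 CPM with Palmul-tang at 500 µg/mL.

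Each extract and dose was compared with vehicle by edgeR's quasi-likelihood test, and a gene is said to be called where its Benjamini-Hochberg adjusted p over all genes tested is below 0.05. These 12 comparisons share the same 3 vehicle libraries. Sagunja-tang at 500 µg/mL changed 3 of the 10 genes (1 higher, 2 lower, and only CA9, higher, without replicate 2) against 36.7% of all genes, and 1 of 10 at 100 µg/mL (16.4% of all) and at 20 µg/mL (21.9%). Samul-tang raised 4 at 500 µg/mL (27.5% of all genes called), 2 at 100 µg/mL (20.1%) and 3 at 20 µg/mL (17.6%), with none lower. Palmul-tang changed 5 at 500 µg/mL (1 higher, 4 lower, 32.1% of all), 1 at 100 µg/mL (lower, 20.0%) and 3 at 20 µg/mL (2 higher, 1 lower, 20.3%). Sibjeondaebo-tang changed 8 at 500 µg/mL (3 higher, 5 lower, 39.6% of all), 4 at 100 µg/mL (2 and 2, 26.0%) and 4 at 20 µg/mL (3 and 1, 22.0%). Shares of so few genes are coarse, and they lay both above and below that of all genes. Sibjeondaebo-tang at 500 µg/mL stood farthest from it, with 8 of 10 beside 39.6%. With trends along GC content and gene length removed, 5 of the 10 were called there, and the share of all genes under that setting is not given. The 10 genes did not move in 1 direction. At 500 µg/mL the median log2 fold change of the 10 was 0.16 for Samul-tang (-0.0021 over all genes), -0.02 for Sagunja-tang (-0.0087), -0.05 for Sibjeondaebo-tang (-0.022) and 0.01 for Palmul-tang (-0.0057).

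**Figure D2:**
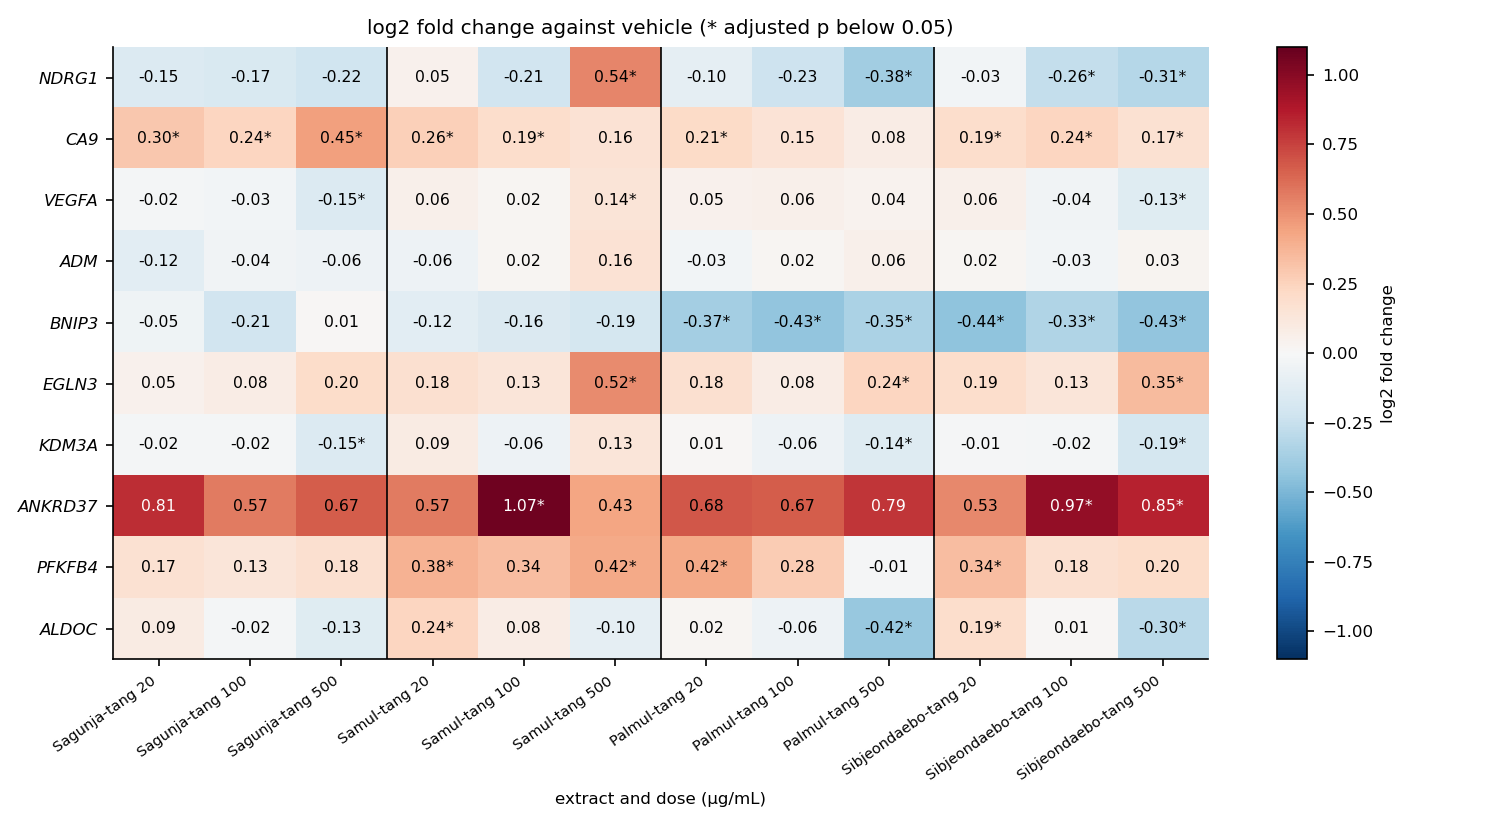
Log2 fold change of each gene (rows) against vehicle for each extract and dose (columns, µg/mL), with red for higher and blue for lower and an asterisk where the adjusted p was below 0.05. CA9 is red in every column, BNIP3 carries an asterisk in all 6 columns of Palmul-tang and Sibjeondaebo-tang, and NDRG1 is red at 0.54 with Samul-tang at 500 µg/mL and blue at the same dose of the other formulas.

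NDRG1 (ENSG00000104419, chromosome 8, 133237171 to 133302022, minus strand, hg38) encodes a stress-responsive cytoplasmic protein and had the largest difference between formulas among the 10 genes. In vehicle it measured 15.8, 17.1 and 18.4 CPM, and with Samul-tang at 500 µg/mL 27.0 and 22.7 CPM. Both latter libraries lay above every other library of the series. NDRG1 rose by 0.54 ± 0.10 (SE) on the log2 scale with this treatment (1.45-fold, adjusted p = 0.000198). At the same dose it measured 13.7 and 15.6 CPM with Sagunja-tang, 11.8, 14.0 and 13.7 CPM with Palmul-tang, and 14.0, 13.1 and 14.4 CPM with Sibjeondaebo-tang. All 8 of these libraries were below all 3 vehicle libraries. The falls with Palmul-tang (-0.38 ± 0.09, adjusted p = 0.00288) and Sibjeondaebo-tang (-0.31 ± 0.09, adjusted p = 0.0105) were called, and the value with Sagunja-tang was not (-0.22 ± 0.11, adjusted p = 0.108, and -0.13, adjusted p = 0.553, without replicate 2). The Sagunja-tang value was called lower with the replicate number as a block (-0.27, adjusted p = 0.0196) and without the filter on low counts (adjusted p = 0.0381). The Samul-tang and Palmul-tang calls remained without each single library in turn (0.41 to 0.66 and -0.43 to -0.30). The Sibjeondaebo-tang call was lost without vehicle replicate 3 (-0.25, adjusted p = 0.0654) and with trends along GC content and gene length removed (-0.22, adjusted p = 0.0503).

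At 100 µg/mL, NDRG1 measured 14.7 and 15.7 CPM with Sagunja-tang, 15.1 and 14.5 CPM with Samul-tang, 13, 16.0 and 15.1 CPM with Palmul-tang, and 13.9, 14.7 and 14.1 CPM with Sibjeondaebo-tang. Only the last was called lower (-0.26 ± 0.09, adjusted p = 0.0385), and that call was lost without any single library of its own group (-0.25 to -0.29, adjusted p from 0.0527 to 0.106), without vehicle replicate 2 (adjusted p = 0.087) and without vehicle replicate 3 (adjusted p = 0.173). With the replicate block Samul-tang (-0.26, adjusted p = 0.038) and Palmul-tang (-0.22, adjusted p = 0.0412) were called lower too, the latter also without the low-count filter (adjusted p = 0.0233). At 20 µg/mL the values were 14.2 and 16.6 CPM with Sagunja-tang, 16.1 and 19.3 CPM with Samul-tang, 14.3, 16.3 and 17.5 CPM with Palmul-tang, and 15.8, 16.2 and 18.2 CPM with Sibjeondaebo-tang. All 4 low-dose groups overlapped vehicle and none was called for NDRG1 (adjusted p from 0.32 to 0.852, none with an unadjusted p below 0.05). The order of the group means was Samul-tang 500 (24.9 ± 3.05 CPM, SD, n = 2), Samul-tang 20 (17.7 ± 2.23), vehicle (17.1 ± 1.32, n = 3), Sibjeondaebo-tang 20 (16.7 ± 1.28), Palmul-tang 20 (16.0 ± 1.61), Sagunja-tang 20 (15.4 ± 1.65), Sagunja-tang 100 (15.2 ± 0.656), Samul-tang 100 (14.8 ± 0.369), Palmul-tang 100 (14.7 ± 1.57), Sagunja-tang 500 (14.6 ± 1.33), Sibjeondaebo-tang 100 (14.3 ± 0.415), Sibjeondaebo-tang 500 (13.8 ± 0.658) and Palmul-tang 500 (13.2 ± 1.21). From Samul-tang 20 downward, each step between neighbours was smaller than the larger SD of the pair.

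Samul-tang and Sagunja-tang were compared directly at 500 µg/mL, and 4 of the 10 genes differed (3 higher, 1 lower with Samul-tang) against 5.47% of all genes. The median of the 10 was 0.23, beside -0.0016 over all genes. NDRG1 was 0.76 ± 0.11 higher with Samul-tang (1.69-fold, adjusted p = 0.000174), and remained called without each single library in turn (0.63 to 0.87), with 0.67 (adjusted p = 0.0173) without Sagunja-tang replicate 2. VEGFA measured 74.6 and 76.3 CPM with Samul-tang and 57.7 and 65.7 CPM with Sagunja-tang (0.29 ± 0.05, adjusted p = 0.00212). KDM3A measured 42.3 and 43.6 CPM against 34.1 and 36.9 CPM (0.27 ± 0.06, adjusted p = 0.00596). CA9 went the other way, with 36.2 and 33.8 CPM against 45.8 and 39.7 CPM (-0.29 ± 0.07, adjusted p = 0.0177). In all 4 genes the libraries of the formulas did not overlap. These genes were called on the same values, so the lack of overlap adds no separate support. How many of all genes lack overlap between groups this small was not counted, here or elsewhere. Nor was the share of all genes with most extract libraries on 1 side of vehicle. In VEGFA, KDM3A and CA9 the Sagunja-tang value farther from Samul-tang was that of replicate 2. EGLN3, at 12.2 and 11.6 CPM against 10.5 and 8.57 CPM, missed the threshold (0.32 ± 0.11, adjusted p = 0.0723).

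Without Sagunja-tang replicate 2 the other 3 calls were lost, at 0.19 for VEGFA (adjusted p = 0.194), 0.21 for KDM3A (adjusted p = 0.24) and -0.19 for CA9 (adjusted p = 0.5). KDM3A was also lost without Samul-tang replicate 3 (0.24, adjusted p = 0.0785), and CA9 without Samul-tang replicate 2 (-0.34, adjusted p = 0.0604) or replicate 3 (-0.24, adjusted p = 0.163). With GC and length trends removed, KDM3A (0.15, adjusted p = 0.112) and CA9 (-0.23, adjusted p = 0.0633) were not called. When the 4 libraries were fitted alone, 0 of the 10 were called by edgeR, with 5 at an unadjusted p below 0.05 and adjusted p = 0.263 for NDRG1. DESeq2 called 4 of the 6 genes for which it gave an adjusted p.

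**Figure D3:**
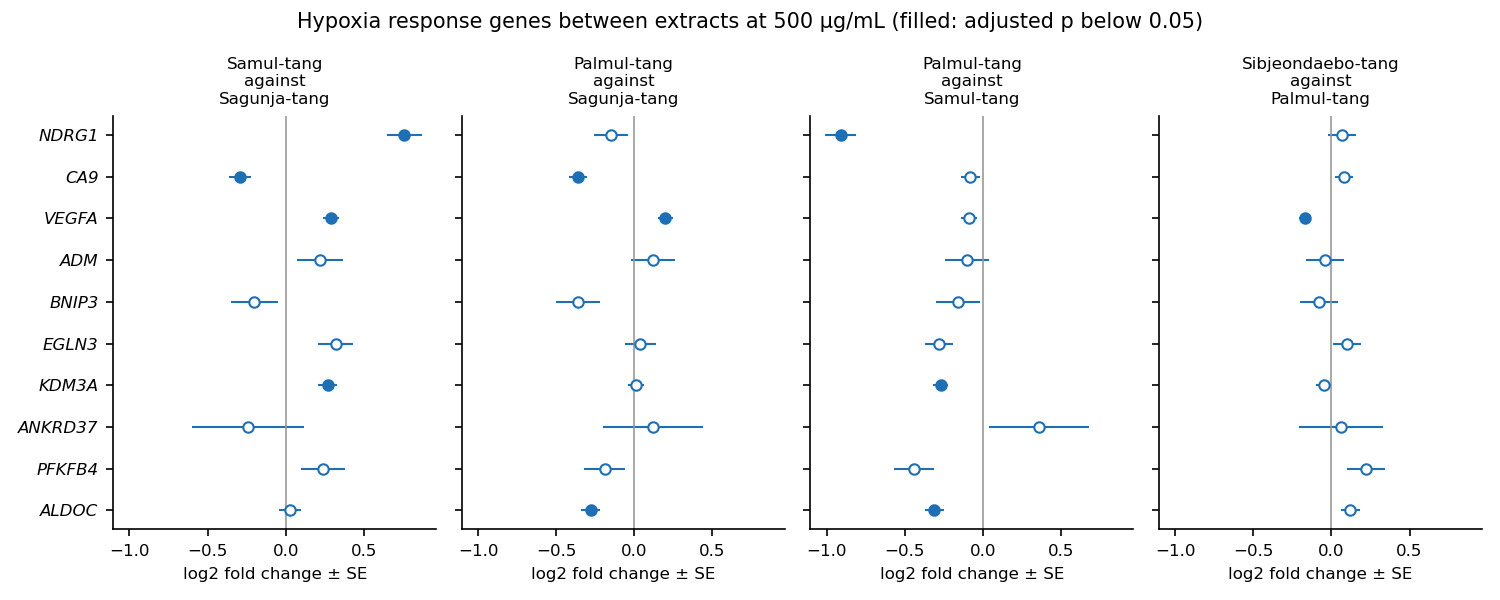
Log2 fold change ± SE of each gene between formulas at 500 µg/mL in 4 direct comparisons, filled where the adjusted p was below 0.05. NDRG1 lies farthest from 0 in both panels that involve Samul-tang (0.76 against Sagunja-tang, and -0.91 for Palmul-tang against Samul-tang) and near 0 in the other panels (-0.15 and 0.07).

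Palmul-tang, which contains the herbs of both formulas, did not show the NDRG1 level of Samul-tang at the same extract dose. The labels give the dose of the whole extract, not of the herbs within it. The sample codes of Palmul-tang and Samul-tang also begin differently. Against Samul-tang at 500 µg/mL, 3 of the 10 genes were lower with Palmul-tang, among 24 genes called in all (0.138%). NDRG1 differed most, by -0.91 ± 0.10 (1.88-fold lower, adjusted p = 1.04e-05), and remained called in edgeR without each single library (-1.03 to -0.79). ALDOC measured 14.6, 14.1 and 14.3 CPM with Palmul-tang and 17.3 and 18.3 CPM with Samul-tang (-0.31 ± 0.06, adjusted p = 0.0305). KDM3A measured 37.1, 35 and 35.2 CPM against 42.3 and 43.6 CPM (-0.27 ± 0.05, adjusted p = 0.0168). In none of the 3 did the groups overlap. ALDOC was lost without any 1 of the 5 libraries (adjusted p from 0.0769 to 0.247), and KDM3A without Palmul-tang replicate 2 or 3 (adjusted p = 0.101 and 0.0952) or Samul-tang replicate 2 or 3 (adjusted p = 0.113 and 0.172) or with GC and length trends removed (-0.21, adjusted p = 0.0791). DESeq2 gave an adjusted p for only 3 of the 10, NDRG1 and ALDOC not among them, and called KDM3A.

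Against Sagunja-tang at 500 µg/mL, Palmul-tang differed in 3 of the 10 genes against 1.82% of all genes. CA9 was lower (32.8, 33.5 and 33.3 CPM against 45.8 and 39.7 CPM, -0.36 ± 0.06, adjusted p = 0.00295), as was ALDOC (-0.28 ± 0.06, adjusted p = 0.0224), and VEGFA was higher (71.4, 70.8 and 70.0 CPM against 57.7 and 65.7 CPM, 0.20 ± 0.05, adjusted p = 0.0307). None of these groups overlapped. All 3 calls were lost without Sagunja-tang replicate 2, at -0.27 (adjusted p = 0.199), -0.22 (adjusted p = 0.436) and 0.10 (adjusted p = 0.709), and edgeR then called 0 of the 10 with 3 at an unadjusted p below 0.05. VEGFA and ALDOC were also lost without any single Palmul-tang library (adjusted p from 0.0547 to 0.0956). NDRG1 was not called here (-0.15 ± 0.11, adjusted p = 0.433). Sibjeondaebo-tang differed from Palmul-tang in 1 of the 10 genes against 3.87% of all. VEGFA was lower with Sibjeondaebo-tang (63.0, 64.2 and 60.9 CPM against 71.4, 70.8 and 70.0 CPM, -0.17 ± 0.04, adjusted p = 0.012), with no overlap, and this was lost without Sibjeondaebo-tang replicate 3 (-0.15, adjusted p = 0.0839).

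Among the surface and secreted products, CA9 was called higher at 1 or more doses of each formula, with Palmul-tang at 20 µg/mL only. CA9 (ENSG00000107159, chromosome 9, 35673856 to 35681159, plus strand) encodes a membrane carbonic anhydrase that helps cells handle acid. It measured 33, 29.1 and 31.9 CPM in vehicle, and 29 of 30 extract libraries lay above all 3 (the 30 ran from 32.8 to 45.8 CPM, median 36.1). It was called higher in 9 of the 12 comparisons with vehicle, by 0.17 to 0.45. The largest rise was with Sagunja-tang at 500 µg/mL (45.8 and 39.7 CPM, 0.45 ± 0.06, adjusted p = 8.96e-06, and 0.35, adjusted p = 0.00269, without replicate 2), above the values of that formula at 100 µg/mL (37.3 and 36.8 CPM) and 20 µg/mL (39.2 and 38.2 CPM), although the doses of 500 and 20 µg/mL did not differ by the test (0.14 ± 0.07, adjusted p = 0.207). The 3 groups not called were Samul-tang 500 (0.16 ± 0.06, adjusted p = 0.0656), Palmul-tang 100 (0.15 ± 0.06, adjusted p = 0.0805) and Palmul-tang 500 (0.08 ± 0.06, adjusted p = 0.296). In GENCODE 29, 38.5% of the exon bases of CA9 lie opposite exons of ARHGEF39. The library kit marks strand, but whether counting used it is not given in the sources used here, and reads of the pair may be shared. ARHGEF39 was called higher in 3 of the 12 comparisons, with log2 fold changes of -0.01 to 0.17, and its part in the CA9 values was not tested.

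The 9 CA9 calls against vehicle differed in how far they depended on single libraries. Those for Sagunja-tang 500, Sagunja-tang 20 and Sibjeondaebo-tang 100 remained without each library in turn. Vehicle replicate 2, the lowest at 29.1 CPM, decided 5 of the other 6: without it adjusted p was 0.0712 for Sagunja-tang 100, 0.18 for Samul-tang 100, 0.0934 for Palmul-tang 20, 0.172 for Sibjeondaebo-tang 500 and 0.133 for Sibjeondaebo-tang 20. Single libraries of the treated groups ended calls as well: replicate 2 of Sagunja-tang 100 (adjusted p = 0.107), replicates 2 and 3 of Samul-tang 100 (0.281 and 0.0512), replicate 3 of Samul-tang 20 (0.0637), of Sibjeondaebo-tang 500 (0.0809) and of Sibjeondaebo-tang 20 (0.175), and vehicle replicate 3 for Samul-tang 100 (0.0589). With GC and length trends removed, CA9 was not called for Palmul-tang 20 (0.15, adjusted p = 0.0624), Samul-tang 100 (0.14, adjusted p = 0.125) or Sibjeondaebo-tang 20 (0.12, adjusted p = 0.143).

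VEGFA (ENSG00000112715, chromosome 6, 43770184 to 43786487, plus strand) encodes the main growth factor for blood vessels. Its vehicle values were close together at 68.4, 69.4 and 68.1 CPM. It rose with Samul-tang at 500 µg/mL (0.14 ± 0.05, adjusted p = 0.0306) and fell with Sagunja-tang (-0.15 ± 0.05, adjusted p = 0.0138) and Sibjeondaebo-tang (-0.13 ± 0.04, adjusted p = 0.0149) at that dose, with no overlap with vehicle in the 3 groups. The changes were small, at 1.1-fold higher, 1.11-fold lower and 1.1-fold lower. The Samul-tang call was lost without any 1 of its 5 libraries (adjusted p from 0.0533 to 0.192), that of Sagunja-tang without replicate 2 (-0.06, adjusted p = 0.499) and that of Sibjeondaebo-tang without replicate 3 (-0.11, adjusted p = 0.075). With GC and length trends removed, the 2 falls were near 0 (-0.00, adjusted p = 0.99, and -0.02, adjusted p = 0.761), and VEGFA was called higher with Palmul-tang at 500 µg/mL (0.10, adjusted p = 0.0203) and 100 µg/mL (0.10, adjusted p = 0.0447). ADM (ENSG00000148926, chromosome 11, 10304680 to 10307397, plus strand), the gene for the vasodilator peptide adrenomedullin, ranged from 2.98 to 4.70 CPM over all libraries and from 3.11 to 4.14 CPM in vehicle. It was called in 0 of 21 comparisons by edgeR, with 0 at an unadjusted p below 0.05 and log2 fold changes against vehicle of -0.12 to 0.16.

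BNIP3 (ENSG00000176171, chromosome 10, 131966455 to 131982013, minus strand) encodes a mitochondrial membrane protein that marks mitochondria for removal. In vehicle it measured 2.77, 3.16 and 2.67 CPM. With Palmul-tang it measured 2.09, 2.31 and 2.38 CPM at 500 µg/mL, 2.10, 2.30 and 2.04 CPM at 100 µg/mL, and 2.07, 2.19 and 2.45 CPM at 20 µg/mL. With Sibjeondaebo-tang the values were 2.41, 2.09 and 1.90 CPM at 500 µg/mL, 2.66, 2.12 and 2.09 CPM at 100 µg/mL, and 2.20, 2.15 and 2.03 CPM at 20 µg/mL. All 18 of these libraries lay below all 3 vehicle libraries. BNIP3 was called lower in all 6 groups, by -0.33 to -0.44 (adjusted p from 0.00745 to 0.0483), and the doses of 500 and 20 µg/mL were not called apart (0.02 ± 0.12 and 0.01 ± 0.13). With Sagunja-tang and Samul-tang it was called in none of 6 groups (-0.21 to 0.01, none with an unadjusted p below 0.05). The 2 sets of formulas also differ in sample code, and the direct comparisons across them at 500 µg/mL were not called (-0.36 ± 0.14, adjusted p = 0.14, against Sagunja-tang, and -0.16 ± 0.14, adjusted p = 0.766, against Samul-tang). All 6 calls were lost without vehicle replicate 2, the highest at 3.16 CPM (-0.26 to -0.35, adjusted p from 0.054 to 0.208), and each was lost without 2 to 5 of its 6 libraries in all. DESeq2 lost those of Palmul-tang 500 (adjusted p = 0.0768), Palmul-tang 20 (0.0908) and Sibjeondaebo-tang 100 (0.104). In edgeR without the low-count filter, every Palmul-tang call and that of Sibjeondaebo-tang 100 were lost (adjusted p from 0.0629 to 0.178). The same calls were lost with the compared groups fitted alone (adjusted p from 0.0567 to 0.12). That of Sibjeondaebo-tang 100 was also lost with the replicate block (adjusted p = 0.0502).

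Of the enzymes that use oxygen themselves, EGLN3 was called higher than vehicle with 3 formulas at 500 µg/mL and KDM3A lower with 3, but the KDM3A calls did not hold with GC and length trends removed. EGLN3 (ENSG00000129521, chromosome 14, 33924231 to 34462774, minus strand) encodes a HIF prolyl hydroxylase. It measured 8.15, 9.08 and 7.51 CPM in vehicle, 12.2 and 11.6 CPM with Samul-tang at 500 µg/mL, 9.61, 10.1 and 9.70 CPM with Palmul-tang and 10.5, 10.3 and 10.7 CPM with Sibjeondaebo-tang. It was called higher in these 3 groups, by 0.52 ± 0.10 (adjusted p = 0.000267), 0.24 ± 0.09 (adjusted p = 0.0396) and 0.35 ± 0.09 (adjusted p = 0.00297), with no overlap with vehicle. Sagunja-tang, at 10.5 and 8.57 CPM, overlapped vehicle and was not called (0.20 ± 0.10, adjusted p = 0.135, and 0.06, adjusted p = 0.818, without replicate 2). That value was called higher with GC and length trends removed (0.28, adjusted p = 0.0481) and without replicate 3 (0.35, adjusted p = 0.0243), which leaves the library that stood apart. The Samul-tang and Sibjeondaebo-tang calls remained without each library in turn, and that of Palmul-tang was lost without any of its own libraries (adjusted p from 0.0637 to 0.105) or without vehicle replicate 1 or 3 (adjusted p = 0.09 and 0.193).

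KDM3A (ENSG00000115548, chromosome 2, 86440647 to 86492716, plus strand) encodes a histone demethylase. It measured 39.5, 39.7 and 38.9 CPM in vehicle and fell at 500 µg/mL of Sagunja-tang (34.1 and 36.9 CPM, -0.15 ± 0.05, adjusted p = 0.0266), Palmul-tang (37.1, 35 and 35.2 CPM, -0.14 ± 0.05, adjusted p = 0.0187) and Sibjeondaebo-tang (35.8, 34.1 and 33.9 CPM, -0.19 ± 0.05, adjusted p = 0.00178). These groups lay wholly below vehicle. With Samul-tang both values (42.3 and 43.6 CPM) were above vehicle, but the difference was not called (0.13 ± 0.05, adjusted p = 0.0604) unless GC and length trends were removed (0.17, adjusted p = 0.00729). With trends along GC content and gene length removed from each library, none of the 3 falls was called: the values were 0.02 (adjusted p = 0.765), -0.04 (adjusted p = 0.556) and -0.05 (adjusted p = 0.33). The Sagunja-tang call was also lost without its replicate 2 (-0.09, adjusted p = 0.371) and without vehicle replicate 1 (adjusted p = 0.0514) or 2 (adjusted p = 0.0616). Palmul-tang was lost without its replicate 2 or 3 (adjusted p = 0.071 and 0.056).

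ANKRD37 (ENSG00000186352, chromosome 4, 185396021 to 185400628, plus strand), which encodes a small ankyrin repeat protein, was the least abundant gene. Vehicle values were 0.414, 0.345 and 0.568 CPM, from 13, 12 and 17 counts. Of the 30 extract libraries, 25 lay above all 3 vehicle libraries (the 30 ran from 0.423 to 1.03 CPM, median 0.733). All 12 log2 fold changes were positive, from 0.43 to 1.07, but each had an SE of 0.31 to 0.36. It was called with Samul-tang 100 (0.839 and 0.999 CPM, 1.07 ± 0.33, adjusted p = 0.0246), Sibjeondaebo-tang 100 (0.824, 0.740 and 1.01 CPM, 0.97 ± 0.31, adjusted p = 0.0213) and Sibjeondaebo-tang 500 (0.672, 0.816 and 0.887 CPM, 0.85 ± 0.31, adjusted p = 0.033). All 3 calls were lost without vehicle replicate 1 (adjusted p = 0.0539, 0.055 and 0.0804) or without vehicle replicate 2 (0.0999, 0.104 and 0.139). Samul-tang 100 was also lost without either of its own libraries, Sibjeondaebo-tang 100 without its replicate 3 and Sibjeondaebo-tang 500 without its replicate 2 or 3 (adjusted p from 0.0693 to 0.138). Exons of UFSP2 lie opposite 35.2% of its exon bases. UFSP2 was tested at 9.47 to 11.7 CPM and was called in none of the 12 comparisons by edgeR, with log2 fold changes of -0.09 to 0.09.

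PFKFB4 (ENSG00000114268, chromosome 3, 48517684 to 48562015, minus strand) encodes an enzyme that sets the pace of glycolysis. Its vehicle values were 3.66, 3.59 and 3.57 CPM, and 27 of 30 extract libraries were above them. It was called higher with Samul-tang 500 (5.24 and 4.45 CPM, 0.42 ± 0.13, adjusted p = 0.0176), Samul-tang 20 (4.45 and 4.91 CPM, 0.38 ± 0.13, adjusted p = 0.0485), Palmul-tang 20 (5.74, 4.40 and 4.34 CPM, 0.42 ± 0.12, adjusted p = 0.014) and Sibjeondaebo-tang 20 (5.08, 4.53 and 4.11 CPM, 0.34 ± 0.12, adjusted p = 0.0414). None of these groups overlapped vehicle. With Palmul-tang at 500 µg/mL (4.15, 3.37 and 3.21 CPM) it overlapped vehicle and did not differ beyond the error (-0.01 ± 0.12). The calls were lost without Samul-tang 500 replicate 2 (0.30, adjusted p = 0.23) and without Palmul-tang 20 replicate 1, its highest library (0.28, adjusted p = 0.122), or vehicle replicate 3 (adjusted p = 0.05), while Samul-tang 20 was lost without any 1 of its 5 libraries (adjusted p from 0.0711 to 0.273) and Sibjeondaebo-tang 20 without 5 of its 6 (adjusted p from 0.0685 to 0.176). Both of these low-dose calls of PFKFB4 were also lost in DESeq2 (adjusted p = 0.061 and 0.0558) and after removal of GC and length trends (adjusted p = 0.0652 and 0.0603).

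ALDOC (ENSG00000109107, chromosome 17, 28573115 to 28577264, minus strand), the gene for aldolase C of glycolysis, was the only 1 of the 10 called between 500 and 20 µg/mL with all 4 formulas. In vehicle it measured 17.1, 20.7 and 19.5 CPM. With Sibjeondaebo-tang it measured 21.5, 21.9 and 22.0 CPM at 20 µg/mL, 19.2, 19.2 and 19.6 CPM at 100 µg/mL, and 16.1, 15.1 and 15.6 CPM at 500 µg/mL. With Palmul-tang it went from 20.4, 18.3 and 19.4 CPM through 17.9, 18.1 and 18.9 CPM to 14.6, 14.1 and 14.3 CPM. The high-dose libraries of both formulas lay wholly below vehicle, and the low-dose ones of Sibjeondaebo-tang wholly above. Against vehicle it was called lower with Palmul-tang 500 (-0.42 ± 0.06, adjusted p = 4.6e-06) and Sibjeondaebo-tang 500 (-0.30 ± 0.06, adjusted p = 0.000168), and higher with Sibjeondaebo-tang 20 (0.19 ± 0.06, adjusted p = 0.0166) and Samul-tang 20 (21.8 and 23.6 CPM, 0.24 ± 0.06, adjusted p = 0.00783). The falls remained called without each library in turn (-0.36 to -0.49 and -0.23 to -0.37), whereas the rises were lost when vehicle replicate 1 (0.11, adjusted p = 0.143) or Sibjeondaebo-tang 20 replicate 3 (0.19, adjusted p = 0.0505) was left out for Sibjeondaebo-tang and without replicate 3 (0.19, adjusted p = 0.131) for Samul-tang. Exons of other genes cover 10.1% of the exon bases of ALDOC, 4.73% of PFKFB4 and 1.3% of VEGFA, and those neighbours were not tested.

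The 500 µg/mL dose was compared with 20 µg/mL within each formula, without vehicle. Of the 10 genes, 1 was called with Sagunja-tang (lower, 7.19% of all genes called), 3 with Samul-tang (2 higher, 1 lower, 7.53%), 4 with Palmul-tang (all lower, 14.4%) and 4 with Sibjeondaebo-tang (all lower, 29.9%). ALDOC was lower at 500 µg/mL with each formula, by -0.23 ± 0.07 (adjusted p = 0.043) with Sagunja-tang, -0.35 ± 0.07 (adjusted p = 0.000973) with Samul-tang, -0.43 ± 0.06 (adjusted p = 3.63e-06) with Palmul-tang and -0.48 ± 0.06 (adjusted p = 1.97e-07) with Sibjeondaebo-tang. In no formula did the libraries of the doses overlap. The last 3 calls remained without each library, and that of Sagunja-tang was lost without its 20 µg/mL replicate 3 (-0.15, adjusted p = 0.341), its 500 µg/mL replicate 2 (-0.30, adjusted p = 0.0979) or its 500 µg/mL replicate 3 (-0.16, adjusted p = 0.175).

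NDRG1 went in different directions with dose. It was higher at 500 than at 20 µg/mL with Samul-tang (0.49 ± 0.11, adjusted p = 0.00351), and lower with Palmul-tang (-0.28 ± 0.09, adjusted p = 0.0404) and Sibjeondaebo-tang (-0.27 ± 0.09, adjusted p = 0.024). With Sagunja-tang it was not called (-0.07 ± 0.11, adjusted p = 0.776, and 0.01 without replicate 2 at 500 µg/mL). The Samul-tang call was lost without replicate 2 at either dose (0.35 both times, adjusted p = 0.136 and 0.149), the Palmul-tang call without 4 of its 6 libraries (-0.21 to -0.32, adjusted p from 0.0507 to 0.209) and the Sibjeondaebo-tang call without 3 of its 6 (-0.22 to -0.28, adjusted p from 0.0515 to 0.12). The latter 2 NDRG1 calls were also lost with GC and length trends removed (-0.25, adjusted p = 0.0506, and -0.20, adjusted p = 0.0766). EGLN3 also rose with dose of Samul-tang (0.34 ± 0.10, adjusted p = 0.0451), lost without any of the 4 libraries (adjusted p from 0.115 to 0.345). KDM3A was lower at the high dose of Palmul-tang (-0.15 ± 0.04, adjusted p = 0.0268) and Sibjeondaebo-tang (-0.18 ± 0.04, adjusted p = 0.00325), PFKFB4 of Palmul-tang (-0.44 ± 0.12, adjusted p = 0.0103) and VEGFA of Sibjeondaebo-tang (-0.19 ± 0.04, adjusted p = 0.00103). The KDM3A calls were lost with GC and length trends removed (-0.08, adjusted p = 0.208, and -0.10, adjusted p = 0.0785), and that of Palmul-tang also without replicate 2 or 3 at either dose (adjusted p from 0.07 to 0.104). PFKFB4 was lost without Palmul-tang 20 replicate 1 (-0.29, adjusted p = 0.123) or Palmul-tang 500 replicate 3 (-0.37, adjusted p = 0.0628).

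Whether the change between 20 and 500 µg/mL differed between Samul-tang and Sagunja-tang was tested directly. Of the 10 genes, edgeR called 0 (0.138% of all genes called) with 4 at an unadjusted p below 0.05, and DESeq2 called 0 with 3 at an unadjusted p below 0.05. For NDRG1 the difference was 0.56 ± 0.16 (unadjusted p = 0.00136, adjusted p = 0.194). It was called without the filter on low counts (adjusted p = 0.000517) and without Sagunja-tang 500 replicate 3 (0.65, adjusted p = 0.018), and was 0.46 (adjusted p = 0.719) without replicate 2.

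The genes with the pattern most like that of NDRG1 were sought by Pearson correlation over the 13 group means of log2(CPM + 0.5). The search covered the 10695 genes whose average log2 CPM reached 2 and that had a standard symbol. Genes named only by an identifier, a clone or a LINC number were left out. The first 5 were PDK1 (r = 0.88), SAMD5 (0.85), KDM3A (0.83), ZBTB44 (0.82) and SLC29A4 (0.82). The values are descriptions, since the 13 points share library handling and the Samul-tang 500 group lies far from the rest. PDK1, the kinase that limits entry of pyruvate into mitochondria, also ranked first over the 33 single libraries (r = 0.76). It measured 34.5 ± 0.899 CPM with Samul-tang 500, 26.5 ± 2.76 with Sagunja-tang 500 and 29.3 ± 1.12 in vehicle. Among the other 9 genes, KDM3A (0.83), VEGFA (0.60), PFKFB4 (0.53), EGLN3 (0.49), ADM (0.49), ALDOC (0.33) and BNIP3 (0.26) correlated positively with NDRG1, while CA9 was at -0.12 and ANKRD37 at -0.55. Over all 45 pairs of the 10 genes the median r was 0.20, with 9 pairs above 0.5 and 2 below -0.5.

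Other genes of the pathway were taken from lists of regulators (13 of 15 tested), further hypoxia targets (26 of 29) and glycolysis genes (12 of 12). At 500 µg/mL of Samul-tang against Sagunja-tang, 8 of the 26 targets were higher and 0 lower (median 0.07), 2 of the 12 glycolysis genes were higher and 0 lower (median 0.02), and 0 of 13 regulators were higher and 1 lower (median 0.07), beside a median of -0.0016 over all genes and 5.47% of all genes called. Most of these calls were lost without Sagunja-tang replicate 2, which leaves 1 library in that group. Whether such a loss stems from that library or from having fewer libraries cannot be told apart. The medians were then 0.08 for targets, 0.08 for glycolysis genes and -0.01 for regulators. The 4 of these targets with the smallest p were PLOD2, a collagen lysyl hydroxylase (0.30 ± 0.05, adjusted p = 0.000793), PDK1 (0.38 ± 0.07, adjusted p = 0.0015), HK2, a hexokinase (0.43 ± 0.08, adjusted p = 0.00344), and SLC2A1, a glucose transporter (0.21 ± 0.05, adjusted p = 0.0108). Without replicate 2 they were at 0.29 (adjusted p = 0.0248), 0.27 (0.15), 0.39 (0.0949) and 0.18 (0.249). LDHA (0.19 ± 0.04, adjusted p = 0.00369) and PFKP (0.16 ± 0.04, adjusted p = 0.0371) were the glycolysis genes called, with 0.22 (adjusted p = 0.00717) and 0.14 (0.403) without replicate 2. RBX1, a subunit of the VHL ligase, was the regulator called lower (-0.41 ± 0.12, adjusted p = 0.0434), with 32.1 ± 5.68 CPM in Sagunja-tang and -0.23 (adjusted p = 0.729) without replicate 2. HK2 and LDHA were also lost without Samul-tang replicate 2 (adjusted p = 0.0807 and 0.08), and SLC2A1, PFKP and RBX1 without either Samul-tang library (adjusted p from 0.0771 to 0.229). PLOD2 alone of the 7 remained called without each single library. Fitted on the 4 libraries alone, none of the 7 was called (adjusted p from 0.657 to 0.662). Against Samul-tang, Palmul-tang had 0 of the 26 targets higher and 3 lower (0.138% of all genes called). PLOD2 (-0.28 ± 0.04, adjusted p = 0.00398) and PDK1 (-0.31 ± 0.06, adjusted p = 0.021) were among the 3. PLOD2 was lost there without either Samul-tang library (adjusted p = 0.0651 and 0.134), and PDK1 without 4 of the 5 libraries (adjusted p from 0.0769 to 0.198) and with GC and length trends removed (-0.24, adjusted p = 0.0746).

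Against vehicle at 500 µg/mL, Sibjeondaebo-tang had 11 of the 13 regulators called (39.6% of all genes), Sagunja-tang 10 (36.7%), Palmul-tang 9 (32.1%) and Samul-tang 8 (27.5%). HIF1A, EPAS1, VHL, EGLN2 and HIF1AN were each called in 1 direction with all 4 formulas. HIF1A, at 143 ± 6.5 CPM in vehicle, changed by -0.39 ± 0.06 with Sagunja-tang, -0.23 ± 0.06 with Samul-tang and with Palmul-tang, and -0.20 ± 0.06 with Sibjeondaebo-tang. EPAS1, at 45.8 ± 4.16 CPM in vehicle, changed by -0.53 ± 0.09, -0.32 ± 0.09, -0.32 ± 0.08 and -0.21 ± 0.08 in the same order. VHL, the substrate receptor of the ligase, was called higher with all 4 (0.13 to 0.27), as were EGLN2, a further prolyl hydroxylase (0.20 to 0.37), and HIF1AN, an asparaginyl hydroxylase that restrains HIF (0.16 to 0.18). EGLN1 was called with none (-0.04 to 0.10). Of the 10 regulators called with Sagunja-tang, 5 were higher and 5 lower. Group means of other regulators also lay on 1 side of vehicle with all 4 formulas at 500 µg/mL. CREBBP measured 163 ± 13.9 CPM in vehicle and 109 to 135 CPM with the formulas. EP300 measured 153 ± 12.2 CPM and 103 to 132 CPM, and ELOC 61.8 ± 5.96 CPM and 76.9 to 88.3 CPM. Without replicate 2 the Sagunja-tang values were -0.31 for HIF1A (adjusted p = 0.00734), -0.40 for EPAS1 (0.0131), 0.22 for VHL (0.0175), 0.24 for EGLN2 (0.0435) and 0.18 for HIF1AN (0.0118), all still called. Of the 20 results of these 5 genes, 11 remained called without each single library and 9 did not. All 5 with Samul-tang were lost without its replicate 2 (adjusted p from 0.0657 to 0.269). With Sibjeondaebo-tang, EPAS1 (-0.13, adjusted p = 0.235) and VHL (adjusted p = 0.0678) were lost without vehicle replicate 2, and with Palmul-tang VHL was lost without its replicate 3 (adjusted p = 0.0548) and EGLN2 without vehicle replicate 3 (adjusted p = 0.0501).

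At the lowest dose HIF1A was also below vehicle with every formula. It stood at 119 to 122 CPM in the 4 groups at 20 µg/mL and was called lower in each (-0.23 to -0.26), and EPAS1 stood at 37.2 to 39.8 CPM, called with Sagunja-tang only (-0.20 to -0.30). At that dose 7 of the 13 regulators were called with Sagunja-tang (21.9% of all genes called), Palmul-tang (20.3%) and Sibjeondaebo-tang (22.0%), and 4 with Samul-tang (17.6%). Between 500 and 20 µg/mL edgeR called 0 regulators with Sagunja-tang (4 at an unadjusted p below 0.05), Samul-tang (0) and Palmul-tang (1) and 1 with Sibjeondaebo-tang, and DESeq2 called the same numbers. Of all genes, edgeR called 7.19%, 7.53%, 14.4% and 29.9% between these doses, in the same order. The differences from vehicle are all taken against the same 3 libraries, which carry their own sample code. Neither HIF1A (0.17 ± 0.07, adjusted p = 0.136) nor EPAS1 (0.21 ± 0.10, adjusted p = 0.199) was called between Samul-tang and Sagunja-tang. At 500 µg/mL against vehicle, Sibjeondaebo-tang had 14 of the 26 targets called (39.6% of all genes), Samul-tang 12 (27.5%), Sagunja-tang 9 (36.7%) and Palmul-tang 7 (32.1%). The targets were higher in 11 of 26 and lower in 1 with Samul-tang (median 0.12), higher in 6 and lower in 3 with Sagunja-tang (0.05), higher in 5 and lower in 2 with Palmul-tang (0.06), and higher in 11 and lower in 3 with Sibjeondaebo-tang (0.11). Glycolysis genes were called higher in 7 of 12 with Sagunja-tang (median 0.20), 10 with Samul-tang (0.26) and 11 each with Sibjeondaebo-tang (0.29) and Palmul-tang (0.22), and lower in none, beside medians of -0.0087, -0.0021, -0.022 and -0.0057 over all genes in the same order. Without Sagunja-tang replicate 2, 2 targets were higher and 0 lower (median 0.05) and 5 glycolysis genes were higher (0.14) with that formula. ALDOC, the aldolase among the 10 genes, was lower with Palmul-tang and Sibjeondaebo-tang at the dose where 11 of these 12 were higher. At 20 µg/mL, 7 of the 12 glycolysis genes were called with Palmul-tang and 6 with each other formula (17.6% to 22.0% of all genes). Group means there were above vehicle for PFKL (81.4 to 86.3 against 70.5 CPM), SLC16A3 (47.8 to 53.1 against 36) and PGK1 (564 to 572 against 496). They were below it for PKM (2406 to 2474 against 2657), GAPDH (3298 to 3392 against 3865) and ALDOA (1120 to 1148 against 1195).

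**Figure D4:**
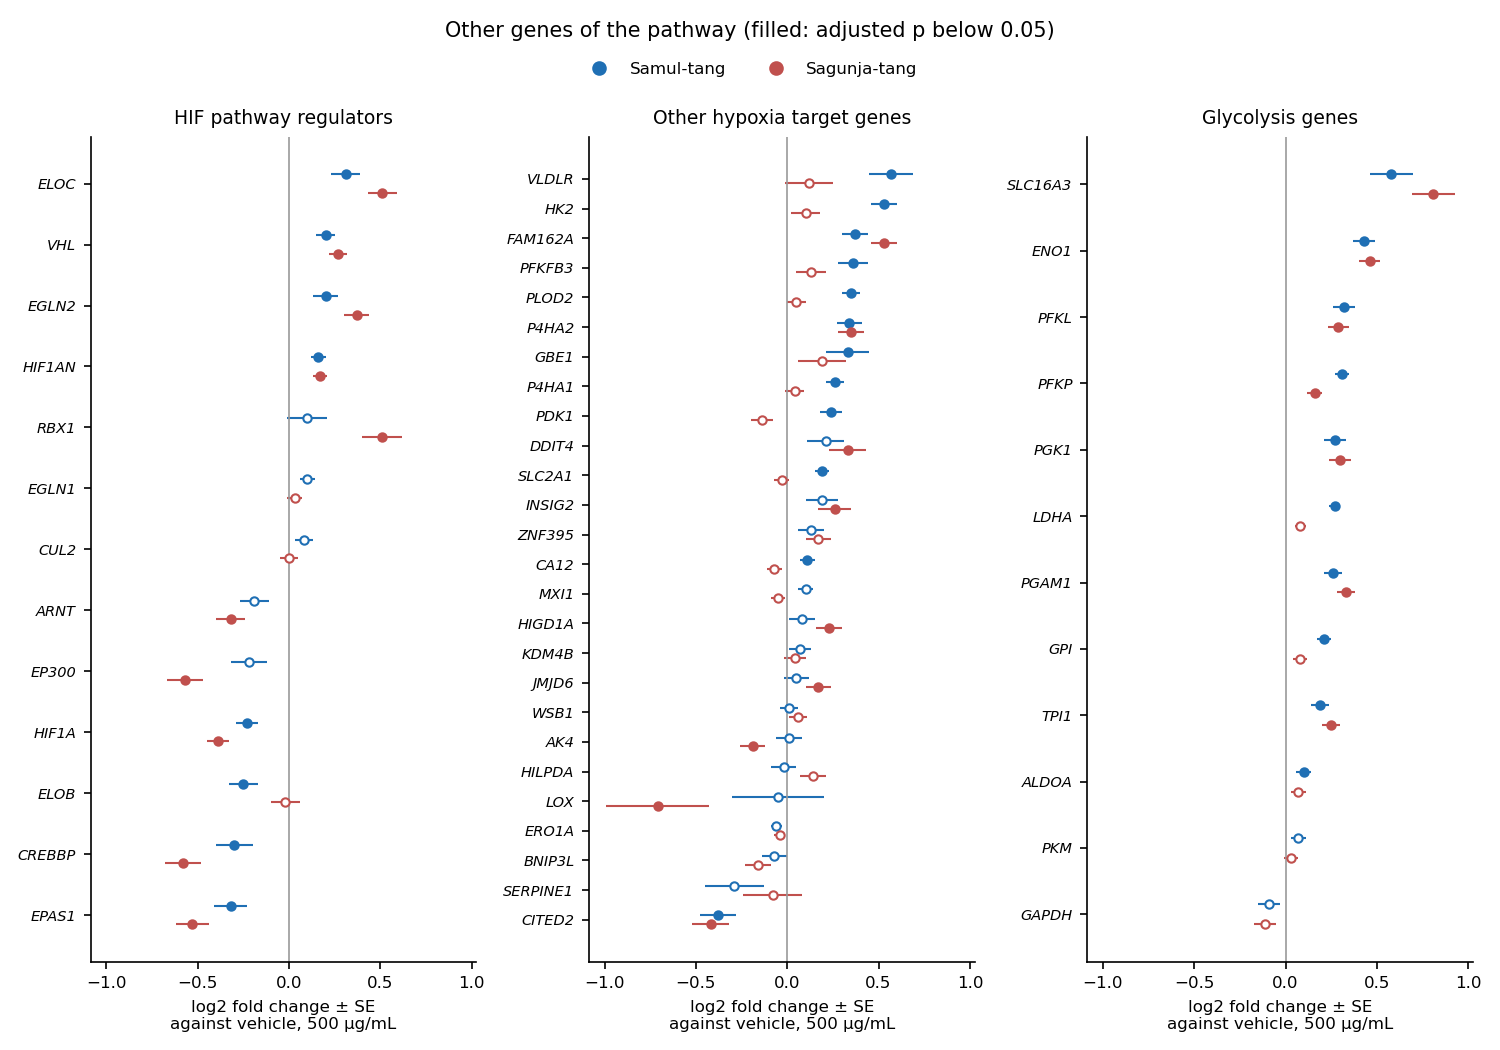
Log2 fold change ± SE against vehicle at 500 µg/mL of Samul-tang (blue) and Sagunja-tang (red) for the tested regulators, further hypoxia targets and glycolysis genes, filled where the adjusted p was below 0.05. HIF1A and EPAS1 lie to the left of 0 with both formulas, and HK2 lies at 0.53 with Samul-tang and 0.10 with Sagunja-tang.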

How the data were processed

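RNA of HT29 cells was sequenced in 33 libraries. Per the submitters' processing notes, the tools were FastQC 0.11.9, Trim Galore 0.6.5, STAR 2.7.3a and RSEM 1.3.3 with build hg38. The authors deposited 1 table of expected counts, estimated by RSEM for each gene. The annotation release and the strand setting of the counting are not given in the sources used here. Of 273 value columns, 33 matched samples by name and 240 were not used. Expected counts (9.45% of values not whole) were rounded. Genes were filtered with filterByExpr (minimum count 10) and scaled by TMM, and 17432 were fitted with edgeR 4.0.16 in R 4.3.3 (quasi-likelihood, 1 coefficient for each of 13 groups, 20 residual degrees of freedom, Benjamini-Hochberg threshold 0.05). Symbols and positions came from GENCODE 29, which held 57055 of the 60675 identifiers.

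CPM values use the TMM library sizes. Each SE of a log2 fold change was worked back from the test, as its size divided by the square root of the quasi-likelihood F statistic. Total counts of 28558866 to 49068019 put 12 to 3564 counts behind each value of the 10 genes. The script was tested on simulated data. The 10 genes, the lists and the comparisons were chosen with earlier results of these data known. From each pathway list, up to 4 genes were named by the smallest p between Samul-tang and Sagunja-tang, and any regulator could be named. Likeness to NDRG1 was ranked by Pearson correlation, and the first 5 genes were named. Alternatives were DESeq2 1.42.0 (without the low-count filter), its size factors in edgeR, no filter, the compared groups alone, a replicate block, GC and length trends removed, and each library left out. Replicate numbers were not used to pair the samples in the main fit. The DMSO percentage is that of the sample labels, and the series text gives another.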

Additional observations from a re-analysis of the deposited data

Results flagged for a closer look

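The effects of the extracts at 500 µg/mL, which share 1 set of vehicle libraries, differed between formulas in 11 results by the direct edgeR test. Samul-tang against Sagunja-tang differed in NDRG1 (0.76 on the log2 scale), CA9 (-0.29), VEGFA (0.29) and KDM3A (0.27). Palmul-tang against Sagunja-tang differed in CA9 (-0.36), VEGFA (0.20) and ALDOC (-0.28). Palmul-tang against Samul-tang differed in NDRG1 (-0.91), KDM3A (-0.27) and ALDOC (-0.31). Sibjeondaebo-tang against Palmul-tang differed in VEGFA (-0.17). Of these, only both NDRG1 results remained called without each single library in turn.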

How the results depend on the processing

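Of 210 results for single genes, 62 were called; 14 of these were called under every alternative that gave an adjusted p (DESeq2 gave none for NDRG1 between Palmul-tang and Samul-tang) and 48 were lost under at least 1. The 1 reversal was KDM3A with Sagunja-tang at 500 µg/mL against vehicle, at 0.02 once GC and length trends were taken out. The cause was not tested for it or for the counts of called genes below, which are out of 10.

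With GC and length trends removed, counts became 1 for Samul-tang 100 (from 2), 2 for Palmul-tang 100 (from 1), 5 for Sibjeondaebo-tang 500 (from 8), 1 for Sibjeondaebo-tang 20 (from 4), 2 for the dose comparisons of Palmul-tang and of Sibjeondaebo-tang (from 4 each) and 2 for Samul-tang against Sagunja-tang (from 4). With the compared groups alone, which leaves fewer samples to estimate the spread, they became 1 for Sagunja-tang 500 (from 3), Samul-tang 100 and Sibjeondaebo-tang 20. They became 0 by edgeR for Palmul-tang 100 (5 at an unadjusted p below 0.05), the Sagunja-tang dose comparison (1), Samul-tang against Sagunja-tang (5) and Palmul-tang against Sagunja-tang (4). Without the low-count filter the Sagunja-tang dose comparison had 0 (3 unadjusted) and the difference of dose effects 1. DESeq2 gave 1 for Samul-tang 100, 2 for Sibjeondaebo-tang 100 (from 4) and 1 for Palmul-tang against Samul-tang (from 3), where it gave an adjusted p for 3 genes only. With the replicate block, counts became 4 for Samul-tang 100 and 3 for Palmul-tang 100; same-numbered libraries did not all deviate together (correlations of their deviations from -0.169 to 0.172 over all pairs of groups), and 1 call was lost and 7 gained.

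Leaving out 1 library gave 1 to 4 calls for Sagunja-tang 500 against vehicle, 0 to 1 for Sagunja-tang 100, 1 to 1 for Sagunja-tang 20, 2 to 5 for Samul-tang 500, 0 to 1 for Samul-tang 100, 0 to 2 for Samul-tang 20, 2 to 5 for Palmul-tang 500, 0 to 2 for Palmul-tang 100, 1 to 4 for Palmul-tang 20, 4 to 8 for Sibjeondaebo-tang 500, 1 to 3 for Sibjeondaebo-tang 100 and 1 to 3 for Sibjeondaebo-tang 20. For 500 against 20 µg/mL it gave 0 to 3 with Sagunja-tang, 1 to 2 with Samul-tang, 1 to 3 with Palmul-tang and 3 to 4 with Sibjeondaebo-tang. Between formulas it gave 1 to 4 for Samul-tang against Sagunja-tang, 0 to 3 for Palmul-tang against Sagunja-tang, 1 to 2 for Palmul-tang against Samul-tang, 0 to 1 for Sibjeondaebo-tang against Palmul-tang and 0 to 3 for the difference of dose effects. Vehicle replicate 2 ended most calls (19). Where a group kept 1 library, that library was assumed to vary like the other groups. At 12 to 46 counts, ANKRD37 had the least precise values.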
